A study of Mus musculus with 9 samples.

Results

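Cells with transcripts of the major histocompatibility complex class II (MHCII) were compared with cells without them in retinas taken after 20 days of constant light. The MHCII-positive cells were chosen by their own counts: a positive cell held at least 2 unique molecular identifiers (UMIs, each standing for 1 captured transcript) summed over H2-Aa, H2-Ab1, H2-Eb1 and Cd74, and a negative cell held 0. A cell had to show at least 200 detected genes, under 10% mitochondrial UMIs and at least 3 UMIs over the myeloid genes Ctss, Fcer1g, Laptm5 and Tyrobp. In all, 192 of the 748 cells of the series were day 20 cells, of which 92 were MHCII-positive, 56 were MHCII-negative and 44 held 1 MHCII UMI and entered neither class. The 4 genes that split the cells and the 4 genes that selected them are not results.

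The mice were female Arr1-/- animals, which are without visual arrestin, so that light kills their photoreceptors, and all groups shared this genotype, so no wild-type cells were compared. They were bred and kept in the dark, and the day 20 group then spent 20 days under constant light of about 200 lux. The day 7 group had 7 days of that light, and the day 0 group had none. According to the study's methods the animals were adults a few months old. Viable CD45+ CD11b+ cells were sorted from dissociated retinas and captured in droplets for sequencing of the 3′ ends of transcripts. Each day had 3 libraries, and the library was the replicate. Nothing in the labels says that libraries came from separate animals, so p-values describe only these libraries. edgeR estimates their spread partly from all tested genes together, so a small p can arise from few libraries.

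MHCII molecules are αβ heterodimers on the surface of antigen-presenting cells, where they show peptides from engulfed proteins to CD4+ T cells. H2-Aa and H2-Ab1 encode the chains of I-A, H2-Eb1 encodes the β chain of I-E, and Cd74 encodes the invariant chain that occupies the groove until the peptide is loaded. Resting microglia, the resident macrophages of the retina, carry little MHCII, whereas monocyte-derived macrophages, dendritic cells and some activated microglia carry more.

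The 3 day 20 libraries held 247290 to 356569 UMIs in 578 to 681 barcodes each. Libraries shared barcodes: 612 of the 1365 different barcodes of the series occurred in more than 1 library, and 1431 of the 1850 day 20 entries had more UMIs under the same barcode elsewhere. Each barcode was therefore kept only in the library where it was deepest. Of the 192 day 20 cells, 129 carried a barcode that another library also held, including 72 of the 92 positive cells (78.3%) and 32 of the 56 negative cells (57.1%). Whether such entries are the same cell was not tested.

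Positive cells made up 56.7% of the day 20 cells in replicate 1 (38 cells), 44.7% in replicate 2 (42 cells) and 38.7% in replicate 3 (12 cells). Negative cells numbered 14, 31 and 11 in the same libraries. At the boundary of the rule, 44 cells held 1 MHCII UMI, 24 held 2 and 8 held 3. Barcodes with fewer than 3 myeloid UMIs, which failed the cell rule, reached 2 MHCII UMIs in 5 of 22 cases (22.7%, median depth 579 UMIs), compared with 47.9% of the cells (median 831.5 UMIs). After every barcode was reduced to 500 UMIs, 2 of 12 such barcodes (16.7%) and 49 of 149 cells (32.9%) did so. At least 2 MHCII UMIs thus also occurred in barcodes that failed the myeloid limit. Whether those barcodes were myeloid was not tested.

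The classes differed in depth. The median positive cell held 860.5, 1143.5 and 1582 UMIs in replicates 1 to 3, and the median negative cell 462, 656 and 564. Detected genes followed, with medians of 362.5, 446.5 and 606 in positive cells and 230.5, 289 and 306 in negative cells. Summed over cells, the positive class held 71253, 115980 and 21792 UMIs and the negative class 7752, 22594 and 6777. A deeper cell reaches 2 UMIs more easily, so depth and class cannot be told apart on the full counts.

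The positive class was also uneven. Its 10 cells with over 5000 UMIs (4 in replicate 1, 6 in replicate 2 and 0 in replicate 3) held 50.3% of all UMIs of the class but 4.47% of its MHCII UMIs, and the 4 genes were 0.109% of the UMIs of the median such cell. In contrast, 41 cells drew at least 1% of their UMIs from the 4 genes, held 19.6% of the UMIs of the class and supplied 90.5% of its MHCII UMIs. The median of these cells was 889 UMIs. The other 41 positive cells, below both limits, had a median of 1027 UMIs. All 10 of the deepest cells had barcodes that another library also held.

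**Figure D1:**
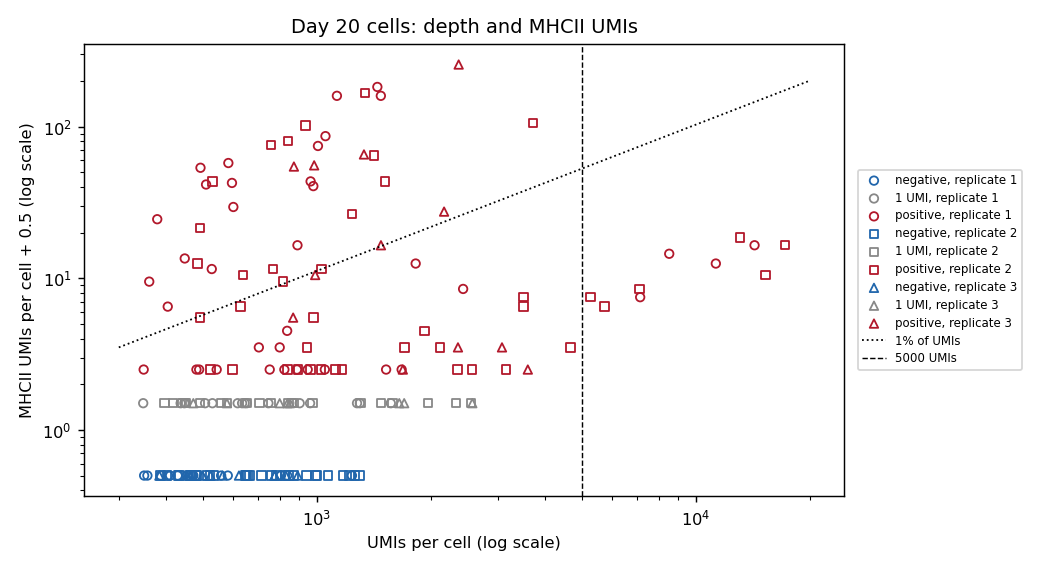
Each point is a day 20 cell, with its total UMIs on the x axis and its MHCII UMIs plus 0.5 on the y axis, both on log scales; colour gives the class and shape the library. The 10 positive cells to the right of the dashed line at 5000 UMIs lie below the dotted line at 1% of UMIs, where 41 positive cells of lower depth lie above it.

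On the full counts, transcripts of the nuclear RNA Malat1, of immediate-early genes, of the chemokines Ccl3, Ccl4 and Ccl12, and of Cd14, Cd83 and Rgs1 were higher in positive cells, by 4.49-fold (Ccl12) to 19.7-fold (Malat1). UMIs were summed per class and library and tested with edgeR's quasi-likelihood test with library as a block. Levels from a fit are CPM scaled by TMM, over only the UMIs of the genes tested in that fit. They are therefore higher than shares of all UMIs and cannot be compared between fits. Of 272 genes tested, 15 were called at an adjusted p under 0.05 (5.51%). All 15 were higher in positive cells and none was lower. An unadjusted p under 0.05 was found for 52 genes. Irrespective of the test, 33 genes (12.1%) had all 3 positive sums above all 3 negative sums and 26 (9.56%) had them all below.

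Malat1, a long noncoding RNA retained in the nucleus (GRCm38 chr19:5795690-5802672, minus strand), differed most. Its level was 38679, 21912 and 4718 CPM in the positive sums of replicates 1 to 3, and 1031, 844 and 1783 CPM in the negative sums. The groups did not overlap, although replicate 3 was nearer than the others. The log2 difference was 4.30 (SE 0.40, adjusted p = 1.39e-06, edgeR), or 19.7-fold. The negative sums rested on 6, 15 and 8 UMIs.

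Immediate-early genes, which are transcribed within minutes of a stimulus without new protein synthesis, were among the called genes. Of 20 genes in the list, 4 passed the filter on low counts, and they passed it through the positive sums, where they are high: their negative sums held at most 11 UMIs in any library. That all 4 were called is therefore a description of these genes and says nothing of the list as a whole. Junb, a subunit of the AP-1 transcription factor, stood at 10386, 7184 and 1933 CPM in positive sums and at 0, 619 and 223 CPM in negative sums. The difference was 4.08 (SE 0.41, adjusted p = 2.11e-06, edgeR). Fos, its AP-1 partner, had 9074, 3435 and 2088 CPM against 0, 450 and 1560 CPM, so that replicate 3 showed little difference while replicates 1 and 2 showed a large one. Its log2 difference was 2.93 (SE 0.54, adjusted p = 0.00110, edgeR). The antiproliferative gene Btg2 (3.00, SE 0.52) and the nuclear regulator Ier2 (3.14, SE 0.55) were higher in every library, both with an adjusted p of 0.000705. Jun was below the filter on low counts. Its class sums held 610 UMIs in positive and 9 in negative cells, a ratio per total UMIs of 12.2 (95% interval 6.38 to 26.8, counting error only). The positive UMIs were 336, 265 and 9 in replicates 1 to 3, and 86.7% of them came from the 10 cells over 5000 UMIs.

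The start sites of these genes were read from RefSeq promoter sequences (GRCm38.p6), which held an entry for 3 of the 4 called members. The 250 bases before each start are shown because these members were called, with every TGACG, or its reverse complement CGTCA, in capitals; this is the core of the element that CREB and ATF proteins bind. The windows are chr1:134079156-134079405 on the minus strand for Btg2, chr12:85473640-85473889 on the plus strand for Fos and chr8:84978749-84978998 on the minus strand for Junb.
Btg2: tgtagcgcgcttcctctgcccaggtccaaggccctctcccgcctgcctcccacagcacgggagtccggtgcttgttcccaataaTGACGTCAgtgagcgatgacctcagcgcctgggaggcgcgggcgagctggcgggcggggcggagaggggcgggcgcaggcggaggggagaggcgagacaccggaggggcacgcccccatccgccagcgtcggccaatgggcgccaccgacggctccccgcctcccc
Fos: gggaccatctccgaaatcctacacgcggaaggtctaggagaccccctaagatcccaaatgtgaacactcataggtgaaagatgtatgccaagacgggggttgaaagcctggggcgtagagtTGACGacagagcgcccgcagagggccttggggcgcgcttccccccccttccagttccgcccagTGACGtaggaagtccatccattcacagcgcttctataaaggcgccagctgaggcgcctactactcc
Junb: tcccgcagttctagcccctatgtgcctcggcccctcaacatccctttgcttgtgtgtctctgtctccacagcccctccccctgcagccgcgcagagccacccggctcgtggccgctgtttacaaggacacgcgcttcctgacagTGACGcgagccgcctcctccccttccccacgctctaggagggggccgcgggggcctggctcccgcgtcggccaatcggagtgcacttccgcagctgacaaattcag
Btg2 and Fos held 2 matches each and Junb held 1. The matches of Btg2 overlap, because its TGACGTCA reads the same on both strands. Of all 32851 promoters of this length, 17.8% held a match and 3.90% held 2 or more. No CArG box, the motif of serum response factor, lay in these 3 windows, and 1.47% of all promoters held one. Sequence more than 250 bases before the starts was not searched, so a CArG box further upstream would be missed. A match describes letters and not binding.

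Chemokines that attract monocytes and other leukocytes formed the second group. Of 17 in the list, 3 passed the filter and were called, which again describes these 3 and not the list. Ccl3 had 5166, 12358 and 1933 CPM in positive sums compared with 172, 1744 and 892 CPM in negative sums (log2 difference 2.84, SE 0.34, adjusted p = 1.63e-05, edgeR). Ccl12 had 8111, 5429 and 1933 CPM compared with 1031, 1069 and 1560 CPM (2.17, SE 0.35, adjusted p = 0.000307). Both were higher in 3 of 3 libraries with no overlap. Ccl4 was higher in 2 of 3: it had 12527 and 19408 CPM against 1203 and 3601 CPM in replicates 1 and 2, but 1624 against 1783 CPM in replicate 3 (2.36, SE 0.33, adjusted p = 7.56e-05).

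Surface and signalling genes completed the called set. Cd14, Cd83 and Rgs1 had 8, 10 and 3 UMIs over all negative cells. They passed the filter on low counts through the positive sums, where they are high, so their calls describe these genes only. Cd14, the lipopolysaccharide co-receptor of macrophages, was at 3292, 3945 and 1933 CPM in positive sums and at 344, 338 and 0 CPM in negative sums (log2 difference 3.61, SE 0.48, adjusted p = 3.48e-05, edgeR). Cd83, an activation marker of antigen-presenting cells that stabilizes surface MHCII, was at 1445, 2625 and 1005 CPM against 0, 563 and 0 CPM (2.71, SE 0.55, adjusted p = 0.00284). Rgs1, a regulator that shortens chemokine receptor signalling, differed by 3.38 (SE 0.70, adjusted p = 0.00345) but rested on 1, 2 and 0 UMIs in negative cells. The actin gene Actg1 differed by 1.61 (SE 0.40, adjusted p = 0.0161). Cyba, a subunit of the phagocyte NADPH oxidase, passed at 1.51 (SE 0.42, adjusted p = 0.0426) and was named after its values were seen, being outside the rule for named genes.

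**Figure D2:**
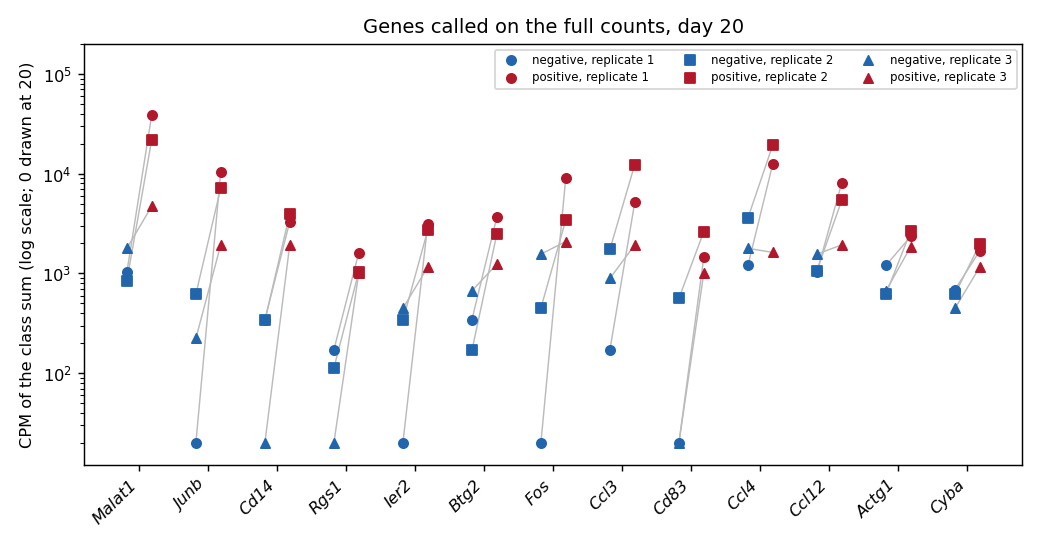
CPM in each class sum, over the UMIs of the tested genes (log scale, with 0 drawn at 20), for 13 of the 15 genes called on the full counts at day 20. Lines join the negative (blue) and positive (red) sum of a library. Every line rises except that of Ccl4 in replicate 3.

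These calls depended on which libraries and entries were used. Without replicate 3 the test called 0 of 611 genes (133 before adjustment), and without replicate 2 the test called 9. A fit without 1 library has fewer sums to estimate spread from, so a lower count does not by itself show smaller differences. Where tested without 1 library, the called genes named above kept log2 differences above 0, from 1.23 (Actg1) to 5.96 (Junb). When every barcode entry was kept in every library, 10 genes were called, of which 1 (Ccl4) was among the 15, and Malat1 (-0.13), Fos (-0.07) and Actg1 (-0.07) no longer pointed upward. Without cells that held at least 2 UMIs of T, NK or B cell, rod or lens markers, 2 genes were called (Lyz2 and Apoe), and neither was among the 15. That setting removed 17, 17 and 5 positive cells and 4, 2 and 3 negative cells of replicates 1 to 3. The limit is a count that deeper cells reach more easily, and the removed cells were not shown to be of other types.

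The 10 deepest cells supplied most of the positive transcripts of many called genes, but not of every one. Their share was 85.9% for Fos, 83.5% for Junb, 79.9% for Malat1, 76.2% for Ccl4, 65.9% for Ccl12 and 64.3% for Ccl3, in comparison with 50.3% of all positive UMIs. It was lower than that for Cyba, at 39.2%. Among genes not called on the full counts, their share was 26.6% for the lipid carrier Apoe and 18.5% for the lysozyme gene Lyz2. It was 86.7% for Jun, which was below the filter on low counts. Without cells over 5000 UMIs, a setting chosen after seeing the data, 13 genes were called, 12 higher and 1 lower, and 7 of the 15 were among them. Malat1 (3.11), Junb (2.59), Ccl3 (2.30), Ccl12 (1.52), Ccl4 (1.28) and Cyba (1.64) were among those that remained, on the log2 scale. Fos had 1.24 with an adjusted p of 0.164 (edgeR). Apoe (1.14) and Lyz2 (0.67) were now called, as were the cathepsin gene Ctsc (2.13), Wfdc17 (1.81) and Tmem176b (1.26), and the ribosomal protein gene Rpl3 (-0.68) was lower.

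Most genes called at equal depth had not been called on the full counts. Junb, Fos, Btg2, Ier2, Cd14, Cd83, Rgs1, Actg1 and Cyba fell below the filter on low counts there and were not tested. Their absence from the calls is therefore no sign of a lost difference. Each day 20 cell with at least 500 UMIs was reduced at random to 500 and then split by the same rule, which gave 49 positive and 67 negative cells whose medians before thinning were 934 and 975 UMIs. Of the 67 negative cells, 16 had been positive and 34 negative on the full counts. Of 151 genes tested, 6 were called (3.97%), 3 higher and 3 lower, while the median difference over all tested genes was -0.01. All 3 positive sums lay above all 3 negative sums in 14 of the 151 genes (9.27%) and below them in another 14 (9.27%).

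Lyz2, the lysozyme of monocytes and macrophages (GRCm38 chr10:117277331-117282321, minus strand), had 6910, 11594 and 22443 CPM in positive sums and 2907, 3964 and 8396 CPM in negative sums. It was higher in 3 of 3 libraries, but replicate 3 was high in both classes and the ranges overlapped. The difference was 1.43 on the log2 scale (SE 0.21, adjusted p = 0.000133, edgeR). Apoe, which rises in macrophages and microglia that take up lipid and debris, had 142804, 136553 and 462096 CPM in positive sums and 65956, 33878 and 84543 CPM in negative sums. All positive sums lay above all negative sums (1.86, SE 0.37, adjusted p = 0.00347). Ftl1, the ferritin light chain that stores iron, had 20236, 22544 and 20717 CPM against 12356, 15555 and 13029 CPM, again without overlap (0.63, SE 0.17, adjusted p = 0.0356).

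The homeostatic microglia markers Cst3 and Cd81 were lower in positive cells at equal depth. Cst3, the secreted protease inhibitor cystatin C, had 23526, 29952 and 28773 CPM in positive sums and 49604, 52798 and 77594 CPM in negative sums (log2 difference -1.08, SE 0.21, adjusted p = 0.00347, edgeR). The tetraspanin Cd81 had 1810, 1127 and 2877 CPM against 5269, 3440 and 5212 CPM (-1.40, SE 0.38, adjusted p = 0.0356). In both genes every positive sum lay below every negative sum. Of the 21 homeostatic genes in the list, 5 were tested, the median was -0.97 and Cst3 and Cd81 fell. Others of the list were Sparc (-0.97, adjusted p = 0.335) and Csf1r, the receptor for macrophage colony-stimulating factor (-0.05).

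Malat1 was not called when cells were split after thinning, with 658, 5958 and 6906 CPM in positive and 4179, 5534 and 1737 CPM in negative sums (log2 difference -0.13). The chemokines were tested in the same fit and had Ccl3 at 0.91, Ccl12 at 0.19 and Ccl4 at -0.01, none of them called. No immediate-early gene had enough counts. The result for Malat1 depended on where the split was made. With every cell at 500 UMIs but the classes of the full counts kept, 5 of 152 genes were called (3.29%): Malat1 (2.43), Junb (2.59) and Lyz2 (1.14) were among those higher, and Rpl3 (-0.92) was lower. Malat1 then had all 3 positive sums above all 3 negative sums (adjusted p = 2.54e-10, edgeR).

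The equal-depth calls varied with the draw. The second random draw called 1 gene, Lyz2 (1.24), and the third called 7, with Lyz2 (1.12), Apoe (1.51) and the ferritin heavy chain Fth1 (0.71) higher and Cst3 (-0.94), Sparc (-1.73) and the cathepsin gene Ctsd (-0.94) lower. At 350 UMIs per cell edgeR called no gene (0 of 143, of which 18 had an unadjusted p under 0.05), and Lyz2 had 1.27. In these 3 further draws, chosen after seeing the data, Lyz2 and Apoe kept a difference above 0 and Cst3 and Cd81 one below 0.

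**Figure D3:**
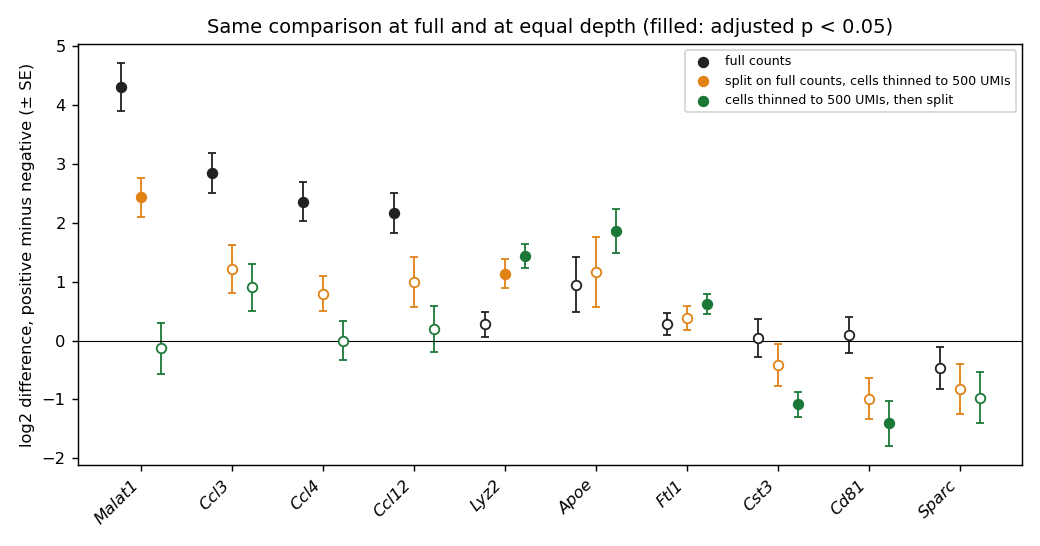
Log2 difference, positive minus negative, with its SE, for 10 genes under 3 treatments of depth; filled points had an adjusted p under 0.05 (edgeR). Malat1, Ccl12 and Ccl4 lie near 0 when cells are thinned and then split, Lyz2 and Apoe lie above it, and Cst3 and Cd81 lie below it.

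The same genes were read in cells where MHCII was abundant. The 41 positive cells with at least 1% of their UMIs from the 4 genes, a limit chosen after seeing the data, were compared with the 56 negative cells in 3 libraries. Of 181 genes tested, 8 were called, 6 higher and 2 lower. Sparc, a matrix glycoprotein of resting microglia, showed the largest difference: it had 2, 2 and 1 UMIs (237, 216 and 220 CPM) in the positive sums and 11, 51 and 17 UMIs (1925, 2939 and 4127 CPM) in the negative sums. The log2 difference was -3.55 (SE 0.47, adjusted p = 0.00126, edgeR). Cd81 was lower as well (-1.50, adjusted p = 0.0447). Lyz2 had 6641, 10703 and 13886 CPM against 3850, 3400 and 6069 CPM, with no overlap (1.28, SE 0.23, adjusted p = 0.00644).

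Ccl3 (2.99), Ccl4 (1.97), Malat1 (3.45) and Fos (1.91) were also higher in these cells, which include none of the 10 deepest. They were still deeper than negative cells, with medians of 599.5, 826 and 1332 UMIs in replicates 1 to 3 against 462, 656 and 564. Of their 182 Ccl3 UMIs, 135 came from 5 cells of replicate 2. Apoe had 144795, 159896 and 425172 CPM against 97638, 39359 and 39325 CPM, so that all positive sums were higher, but the difference of 2.00 had an adjusted p of 0.0786. Cst3 had -0.98 with an adjusted p of 0.0692.

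Over the 5 strata of day 20 cells, pooled CPM over all UMIs but those of the MHCII genes, without TMM scaling, ranked the strata as follows. Lyz2 was at 2855 CPM in cells with 0 MHCII UMIs, 3553 in cells with 1, 5628 in positive cells at or above 1%, 3186 in those below 1% and up to 5000 UMIs, and 905 in the deepest cells. Apoe was at 37793, 43191, 119510, 41476 and 25020 CPM in the same order, so the pooled values of both genes peaked where MHCII took the largest share. For Apoe this held in each of the 3 libraries, whereas Lyz2 in replicate 1 was at 4373 CPM at or above 1% and at 4421 CPM below it. Sparc was lowest there, at 129 CPM, compared with 2128, 1272, 1641 and 1439 CPM in the other strata. Cst3 was at 35881, 28186, 13064, 36602 and 25677 CPM, also lowest in the stratum at or above 1%.

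Malat1 and Junb ordered the strata differently. Malat1 was at 781 CPM with 0 MHCII UMIs, 3481 with 1, 6454 at or above 1%, 5495 below 1% and 22600 in the deepest cells. Junb was at 323, 1128, 1213, 1593 and 7098 CPM. Pooled over libraries, both were highest in the deepest cells, as they were in replicates 1 and 2, but replicate 3 held none of those cells. In replicate 3, Malat1 was highest at or above 1% (5151 CPM), and Junb was highest with 1 MHCII UMI (3279 CPM), followed by cells at or above 1% (2472 CPM). Within the stratum at or above 1%, Malat1 had 859 CPM in replicate 1, 11652 in replicate 2 and 5151 in replicate 3, so replicate 1 was close to its negative sum of 774.

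**Figure D4:**
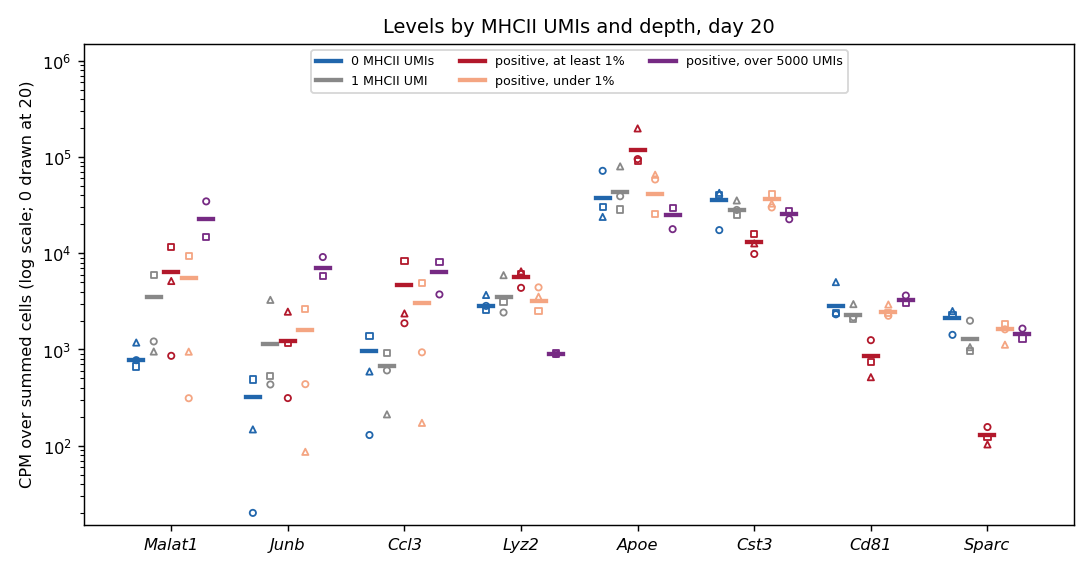
CPM over summed day 20 cells (log scale, 0 drawn at 20) for 8 genes in 5 strata; bars are pooled over libraries and symbols are single libraries. In the pooled bars, Lyz2 and Apoe are highest and Sparc, Cst3 and Cd81 lowest in positive cells with at least 1% of UMIs from the 4 genes, and Malat1 and Junb are highest in cells over 5000 UMIs.

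Other genes of antigen presentation did not pass the test on the full counts. Of 16 genes in the MHCII loading and regulation list, 2 were tested, the endosomal proteases Lgmn (0.57, adjusted p = 0.338, edgeR) and Ctsl (0.06). The rest had few UMIs. H2-DMa, a chain of the peptide exchanger H2-DM, had 71 UMIs in positive and 8 in negative cells, a ratio of 1.60 per total UMIs (95% interval 0.767 to 3.84, counting error only). The costimulatory gene Cd86 had 23 UMIs in positive and 0 in negative cells, at least 1.38-fold higher against a floor of 3 counts over the class. Ciita, the master regulator of MHCII transcription, and the costimulatory gene Cd80 had 0 UMIs in both classes, which allows up to 14.5 CPM in positive and 80.8 CPM in negative cells.

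Of 22 MHC class I genes, 3 were tested and none was called. The heavy chain genes H2-K1 and H2-D1 had differences of 1.49 (adjusted p = 0.152) and 0.62 (adjusted p = 0.152), and the light chain B2m had 0.07. The heavy chains lay above the negative sums in 3 of 3 libraries, with 937, 1260 and 1160 CPM against 515, 506 and 0 CPM for H2-K1. Interferon-stimulated genes had 2 of 40 members tested, Ly6e (0.11) and Ifi27l2a (-0.50), and neither passed.

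Lists of microglial state gave few calls on the full counts. Of 21 homeostatic genes, 10 were tested, with a median of 0.50 against 0.03 over all tested genes. Disease-associated microglia genes, which mark microglia around dying cells, had 9 of 26 tested and 0 called (median 0.46, led by Apoe at 0.95 with an adjusted p of 0.267). At equal depth 6 of them were tested, Apoe rose and the median was -0.19. Spp1, the secreted phosphoprotein osteopontin of that list, was too sparse to test, with 29 UMIs in positive and 33 in negative cells, 32 of the 33 in replicate 2 (ratio 0.158, 95% interval 0.0926 to 0.268, counting error only). Of 25 monocyte and macrophage genes, 4 were tested and Cd14 rose. Ly6c2 had 0 UMIs in both classes and the chemokine receptor Ccr2 had 1 and 0, so these 2 genes could not be compared. Other members of the list, such as Lyz2 and Ms4a7, were detected.

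Further lists were read on the full counts. Of 25 lysosomal genes, 16 were tested, with a median of 0.45, and of 25 actin cytoskeleton genes 12 were tested and 1 (Actg1) rose, with a median of 0.55. Over all 272 tested genes, 5.51% were called and the median was 0.03. At equal depth the medians were -0.20 over 9 lysosomal and -0.26 over 4 actin genes, against -0.01 over all tested genes. Complement genes had 3 of 13 tested and 0 called, with C1qa at 0.32, C1qb at 0.32 and C1qc at 0.59. Fc receptor and Trem2 signalling genes had 3 of 10 tested and 0 called, and heat shock genes 2 of 15, led by Hspa8 at 1.10 with an adjusted p of 0.123. None of the members of the lists of border-associated macrophage, inflammatory cytokine, S100 and annexin, and myeloid transcription factor genes had the counts to be tested. Of 8 mitochondrial transcripts tested none was called, and their share of UMIs had medians of 1.94%, 1.38% and 2.38% in positive and 3.06%, 1.65% and 1.61% in negative cells.

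Cytosolic ribosomal protein genes had 77 of 79 members tested and none called. Their differences were below 0 in 69 of the 77, with a median of -0.26 against 0.03 over all genes. The smallest p was that of Rpl3 (-0.70, SE 0.20, adjusted p = 0.0516, edgeR), with 4095, 3735 and 4563 CPM in positive and 5326, 6471 and 8471 CPM in negative sums. With library totals in place of TMM, which shifts the median of all genes to -0.15, the test called 19 genes, 13 higher and 6 lower, and the 6 were Rpl3, Gm10073, Rpl23a, Rpl37, Rplp1 and Rplp2. At equal depth 41 of 72 were below 0, with a median of -0.03 and none called.

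Transcripts of other cell types were present in both classes, given here as CPM over all UMIs of a class sum but those of the MHCII genes. Müller glia and neuron markers summed to 4208, 713 and 2536 CPM in positive and 774, 620 and 8116 CPM in negative cells. Rod markers summed to 1683, 443 and 657 against 1290, 310 and 1033 CPM, and lens crystallins to 556, 148 and 141 against 387, 221 and 590 CPM. None of these 3 ordered the classes the same way in every library. T and NK cell markers had 86, 356 and 94 against 129, 44 and 0 CPM, B cell markers 29, 17 and 0 CPM against 0 throughout, neutrophil markers 143, 174 and 94 against 258, 177 and 0 CPM, and dendritic cell markers 228, 269 and 188 against 0, 177 and 148 CPM. Flt3, a defining receptor of dendritic cells, had 0 UMIs in both classes. Their part in the results was not tested beyond the removal of marked cells given above.

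The comparison was repeated in the other days. At day 7, replicate 3 held 2 negative cells and was left out, and the other libraries held 6 and 12 negative cells. Of 607 genes tested, 3 were called (0.494%): the lens crystallin Cryaa (3.26) was higher and Gm1673 (-2.71) and Ssbp2 (-3.68) were lower, while DESeq2 called 0 (6 before adjustment). All 15 of the day 20 genes were tested, 13 were higher in positive cells and 0 were called. Lyz2 had 1.43 (SE 0.40, adjusted p = 0.0663, edgeR). When day 7 cells were thinned to 500 UMIs before the split, 2 of 183 genes were called, Malat1 and the cell-selecting gene Ctss, and both were higher. Malat1 had 2.83 (SE 0.39, adjusted p = 3.09e-09, edgeR), where the same split at day 20 gave -0.13. That day 7 value rested on 2 libraries, with 5 and 12 Malat1 UMIs in their negative sums. The day 20 calls at equal depth were not made at day 7, with Lyz2 at 0.23 (adjusted p = 0.952), Apoe at 0.36 (adjusted p = 0.943), Ftl1 at -0.22 and Cst3 at -0.04. The difference between day 20 and day 7 was tested on the full counts for 258 genes and edgeR called 0 (0%), although 15 stood under 0.05 before adjustment. DESeq2 also called 0, with 7 before adjustment. After thinning before the split, edgeR called 0 of 165 (16 before adjustment).

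Day 0, compared after the day 20 values were seen, had 31 positive cells (9, 13 and 9) and 192 negative cells (70, 71 and 51). Of 680 genes tested, 16 were called (2.35%), all higher in positive cells, including Ccl4 (2.55), Cd83 (1.80), Ier2 (1.58) and Junb (1.03). Of the 15 day 20 genes, all were tested at day 0, 14 were higher in positive cells and 5 were called. Leaving out the cells over 5000 UMIs left 0 calls at day 0 (32 genes under 0.05 before adjustment), leaving out the library block left 0 (95), and DESeq2 made 19.

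The difference itself changed between day 0 and day 20 for 11 of 492 genes (2.24%, edgeR), among them 4 of the 15. Both days used the same mapping and filter in a single fit. The deepest negative cell held 8634 UMIs at day 0 and 1298 UMIs at day 20, and the part of depth was not tested. Jun differed most by p (3.20 higher log2 difference at day 20, SE 0.45, adjusted p = 0.000242), followed by Malat1 (3.75, SE 0.56, adjusted p = 0.000338), Junb (2.77) and the transcription factor gene Klf2 (3.64, with 0, 2 and 0 UMIs in the day 20 negative sums). The count was 0 without cells over 5000 UMIs (10 genes under 0.05 before adjustment), 0 without the library block (32) and 0 without day 20 replicate 2 (45), 3 without day 20 replicate 1 and 4 without day 0 replicate 1, and DESeq2 called 2.

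Levels of nuclear RNAs at both days are given by class and were not tested against each other. CPM here is over all UMIs but those of the MHCII genes, without TMM scaling. Malat1 was at 19984, 23130 and 26101 CPM in the day 0 negative sums and at 774, 664 and 1180 CPM in those of day 20. In positive cells it was at 16647, 30253 and 25738 CPM at day 0 and at 20611, 12697 and 2865 CPM at day 20. Xist, the nuclear RNA of the inactive X chromosome, was at 534, 898 and 542 CPM in negative cells at day 0 and at 129, 133 and 0 CPM at day 20. Negative cells at day 20 held few transcripts of either nuclear RNA in any library, and 20 of the 56 had a Malat1 UMI at all. Negative cells were also less deep at day 20, with medians of 462, 656 and 564 UMIs and at most 1298. At day 0 their medians were 783.5, 1073 and 904 UMIs, with at most 8634. Neither the state of these cells nor the part of depth was tested.

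**Figure D5:**
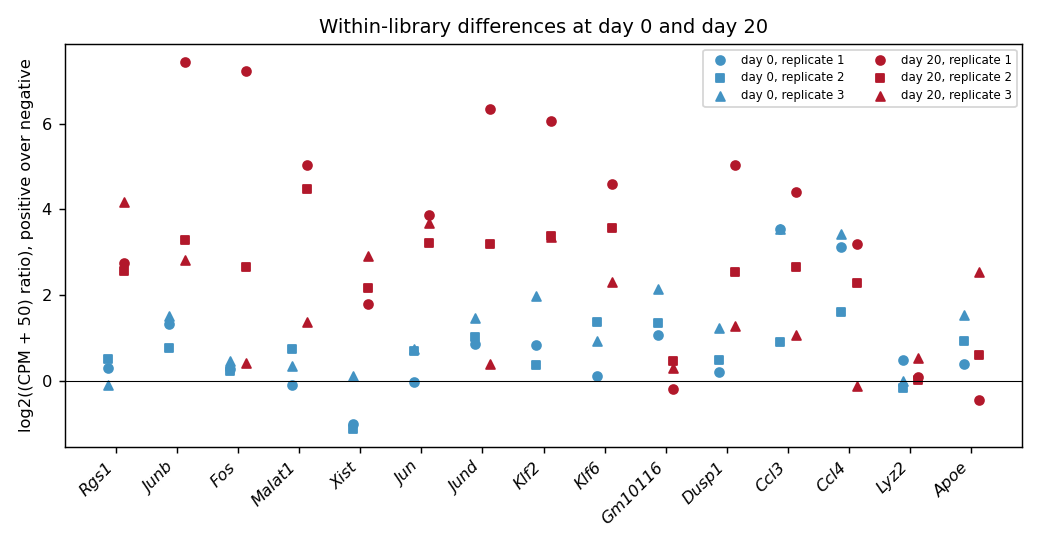
Within-library log2 ratio of positive to negative sums, each CPM plus 50, at day 0 (blue) and day 20 (red) for the 11 genes whose difference changed between the days and for Ccl3, Ccl4, Lyz2 and Apoe. Malat1 and Jun lie higher in all 3 day 20 libraries than in all 3 day 0 libraries, whereas Lyz2 and Apoe overlap between the days.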

How the data were processed

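Single-cell 3′ libraries (10x Genomics, version 2 chemistry) of sorted retinal cells were analysed, 3 for each of 3 days, from UMI counts per gene and barcode as deposited by the authors, without normalization. The submitters' processing notes name Cell Ranger and mm10; versions are not given in the sources used here. Titles of the samples give hours where the treatment labels give days, and days were used. Day 20 libraries held 247290 to 356569 UMIs in 578 to 681 barcodes, and intervals cover counting error only.

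Each barcode was kept in the library with its highest total (no ties), and cells were filtered and split as described in the report. No doublet caller was run. UMIs were summed per library and class. The 4 MHCII genes were left out of tests. Sums were tested with edgeR 4.0.16 (R 4.3.3, quasi-likelihood, TMM, filterByExpr with a minimum count of 10) with library as a block, since both classes come from the same libraries, and Benjamini-Hochberg adjustment at 0.05. SE is the log2 difference divided by the square root of F. DESeq2 1.42.0, library totals, other filters, other splits, thinning and leaving out each library were alternatives. Thinning to 500 UMIs drew UMIs without replacement with a fixed seed (numpy 2.4.6). The study's own tests over single cells were not used. Tested on data simulated from the day 20 sums, the fit recovered 97.4% of 152 changed genes, with 6 false calls among 309 genes. The planted log2 differences were 2 up or down, in abundant genes. The spread was the same for every gene, and neither cells nor libraries differed beyond the size of the sums. The simulation therefore cannot show how reliable the calls on the real sums are.

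The members and gene lists were chosen with earlier results of these data known. Named genes were, of those called with the same direction in all 3 libraries, the 12 with the largest difference in each direction (the 6 with the smallest p where none was called), every called list member, up to 3 abundant uncalled members of each list, and up to 8 genes called between days. Genes called at equal depth, without the deepest cells, in cells with at least 1% MHCII or at day 7 and day 0 were named after their values were seen. The values of 2 of the 15 genes called at day 20 are not reported here. Positions are from GENCODE vM21 (GRCm38) and promoters from RefSeq.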

Additional observations from a re-analysis of the deposited data

Results flagged for a closer look

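The difference between positive and negative cells at day 20 was tested against that at day 0 in a single edgeR fit, and 11 genes passed. It was higher at day 20 by 3.98 on the log2 scale for Klf6, 3.75 for Malat1, 3.64 for Klf2, 3.20 for Jun, 3.20 for Xist, 3.03 for Rgs1, 2.77 for Junb, 2.69 for Jund, 2.49 for Fos and 2.38 for Dusp1, and lower for Gm10116 (-1.32). Jun, Junb, Jund, Fos, Klf2, Klf6 and Dusp1 encode immediate-early or stress-responsive proteins, and Malat1 and Xist are nuclear RNAs. In the day 20 negative sums of replicates 1 to 3, Klf6 had 0, 1 and 0 UMIs, Klf2 had 0, 2 and 0, Rgs1 had 1, 2 and 0, Xist had 1, 3 and 0 and Jund had 0, 4 and 1, so the size of their fitted differences depends on few counts. For Jun the positive sums were at 5312, 12541 and 12750 CPM at day 0 and at 7411, 3293 and 590 CPM at day 20, scaled by TMM over both days. The negative sums were at 5386, 7720 and 7630 CPM at day 0 and at 465, 308 and 0 CPM at day 20. For Dusp1 the negative sums were at 3003, 3281 and 3447 CPM at day 0 and at 0, 205 and 188 CPM at day 20, below the positive sums of day 20 at 1588, 1441 and 525 CPM. These calls rested on the cells over 5000 UMIs, on the library block and on day 20 replicate 2, without each of which 0 genes passed.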

How the results depend on the processing

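Paired by library in the block, 15 genes were called at day 20. With no replicate block the count was 10, with DESeq2 11, and with library totals 19. It was 37 with no filter, 9 at a minimum count of 20 and 26 when Cd74 was left out of the split (24 higher, 2 lower). It was 27 at 100 genes per cell, and 6 and 5 for the thinned split and thinned sums. Without cells holding at least 2 UMIs of other types' markers (below, without other types) it was 2. It was 8 for cells with at least 1% MHCII, and 1, 7 and 0 for the second draw, the third draw and 350 UMIs. It was 0 to 17 without 1 library. At day 7 (3 calls) it was 0 with DESeq2, at a minimum count of 20, with no replicate block, from 1 or 10 UMIs, without Cd74, at 100 genes, without other types, at 1% MHCII, without the deepest cells and at 350 UMIs, 1 from 4 UMIs, with thinned sums and in the third draw, 2 in the thinned split, 10 with no filter and 31 with every entry. The difference between day 20 and day 7 (0 calls) gave 2 with no filter, 1 in the second draw, 0 with no replicate block and 0 to 2 without 1 library. Day 0 (16 calls) gave 52 with library totals, 0 with no replicate block, 0 without the deepest cells and 5 to 83 without 1 library. Day 20 minus day 0 (11 calls) gave 2 with DESeq2, 1 with thinned sums, 0 with no replicate block, 0 without the deepest cells and 0 to 15 without 1 library. The causes were not tested.

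Log2 differences that changed sign were as follows. Malat1 had -0.13 in the thinned split and with every entry, -0.030 in the second draw and -0.33 in the third. Ccl4 had -0.0051 in the thinned split and -0.87 without other types. With every entry, Fos had -0.067, Actg1 -0.068 and Ftl1 -0.038. Cst3, near 0 on the full counts, had -0.15 with library totals and from 4 UMIs, -0.068 with no replicate block, -1.08, -0.61 and -0.94 in the 3 draws, -0.87 at 350 UMIs, -0.41 with thinned sums, -0.54 with every entry, -0.45 without other types, -0.36 from 10 UMIs, -0.98 at 1% MHCII, -0.14 without the deepest cells and -0.35 to 0.22 without 1 library (lowest without replicate 1). Cd81 had -0.086 with library totals, -1.40, -0.94 and -1.07 in the draws, -0.94 at 350 UMIs, -0.99 with thinned sums, -0.29 with every entry, -0.58 without other types, -1.50 at 1% MHCII, -0.51 without the deepest cells, and -0.23 to 0.45 without 1 library (-0.19 without replicate 2). Lyz2 had -0.0045 to 0.44 without 1 library, lowest without replicate 3. Of the other values of named genes, 212 stayed on their side of the threshold, 53 fell short of it and 14 newly passed it. The 500-gene minimum left 1 negative cell and could not be fitted, and day 7 could not lose a library. With 6777 UMIs in the smallest negative sum, 272 of the 10162 genes with a UMI could be tested.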

Other observations

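Genes of the lists, most of them too sparse for the test, were read as pooled UMIs at day 20, with 95% intervals that cover counting error only, and were chosen after their values were seen. The cytokine gene Tnf had 128 UMIs in positive and 2 in negative cells, a ratio of 11.5 (3.12 to 96.0) per total UMIs, with 34, 94 and 0 positive UMIs in replicates 1 to 3. Il1b, which encodes interleukin-1β, had 101 and 2 UMIs (ratio 9.08, 2.45 to 76.0), of which 88 positive UMIs came from replicate 2. Nfkbiz, a regulator induced by NF-kB, had 97 and 1 UMIs (ratio 17.4, 3.06 to 696). The phosphatase gene Dusp1 had 196 and 5 UMIs (ratio 7.05, 2.97 to 21.9) and the immediate-early factor gene Egr1 had 235 and 12 UMIs (ratio 3.52, 1.98 to 6.91). Ms4a7, a membrane protein gene of macrophages outside the resting microglial pool, had 59 and 2 UMIs (ratio 5.30, 1.40 to 44.8), with 24, 27 and 8 positive UMIs and 2, 0 and 0 negative UMIs. Cd68, a lysosomal protein of phagocytes that passed the filter, had 106 and 18 UMIs (ratio 1.06, 0.639 to 1.86). All of these ratios pool the cells of a class, and the 10 cells over 5000 UMIs held 50.3% of the positive UMIs. How much of each ratio came from those cells was not tested.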
